A study of Homo sapiens with 6 samples.

Results

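The axon guidance genes of A375, an established human melanoma cell line, were followed through a comparison of vemurafenib with vehicle. They comprise the semaphorins of classes 3 to 7, plexins, neuropilins, ephrins, Eph receptors, SLITs, ROBOs, netrins and UNC5 receptors. Members were taken by gene symbol, among probe sets that name 1 gene, with the probe set of the highest mean level kept for each gene. This gave 67 of the 18417 genes tested: 34 cues and 33 receptors, with UNC5CL, a related cytoplasmic protein, counted among the receptors. Family members without a probe set that names them alone, EPHB2 and SEMA4C among them, are not in the counts. The set was chosen with earlier results of these data known, so counts over it are descriptions. Both groups carry the BRAF V600E allele, which keeps the ERK kinase pathway switched on, and vemurafenib is an inhibitor of the mutant kinase used to treat melanoma. The 3 vehicle arrays came from cells kept 24 h in 0.1% DMSO, and the 3 vemurafenib arrays from cells kept 24 h in 10 µM of the drug. Each replicate came from a separate stock of cells on a separate day, and A375 is a single line, so the spread is that between cultures of 1 line.

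Guidance cues steer growing axons and migrating cells by attraction or repulsion. Semaphorins act through plexins, with neuropilins as co-receptors for most class 3 members, ephrins through Eph receptor tyrosine kinases on neighbouring cells, SLITs through ROBOs, and netrins through DCC, neogenin and UNC5 receptors. Melanocytes arise from the neural crest, whose migrating cells use several of these systems, and many of the same genes are expressed by tumour cells. The array measured RNA, given per probe set as a log2 level. A change is the mean log2 level with vemurafenib less that with vehicle.

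Guidance genes moved in both directions, more of them upward. Of the 67 genes, 29 rose and 12 fell at an adjusted p threshold of 0.05 (limma, adjusted by Benjamini-Hochberg across every gene tested). That is 61.2% of the members, where 45.5% of all genes tested passed. The rises made up 43.3% of the members against 23.2% of all genes, and the falls 17.9% against 22.2%. At 1.5-fold or more, 27 members changed (40.3%, against 15.7% of all genes), of which 22 rose (32.8%, against 8.71%) and 5 fell (7.46%, against 7.03%). At 2-fold or more there were 8 rises (11.9%, against 3.07%), those of SEMA3C, SEMA6A, ROBO2, EPHA5, PLXNB3, NRP2, UNC5C and ROBO1, and 2 falls (2.99%, against 2.62%), those of EPHA2 and EFNA5. The vemurafenib arrays lay wholly above or below the vehicle arrays for 49 members (73.1%, against 55.4% of all genes). The median change was 0.11 over the members and -0.05 over all genes.

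There were 15 rises and 5 falls among the 34 cues and 14 rises and 7 falls among the 33 receptors. These counts, and those of families and lists below, stand beside 23.2% of all genes called higher and 22.2% called lower. Of the members 14.9%, and of all genes 27.3%, had a group mean at or under 6.87, the level below which the dimmest 25% of genes lay (called dim here). The largest SD of any member within a group was 0.27, and the 26 members that did not pass had changes from -0.24 to 0.19.

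**Figure D1:**
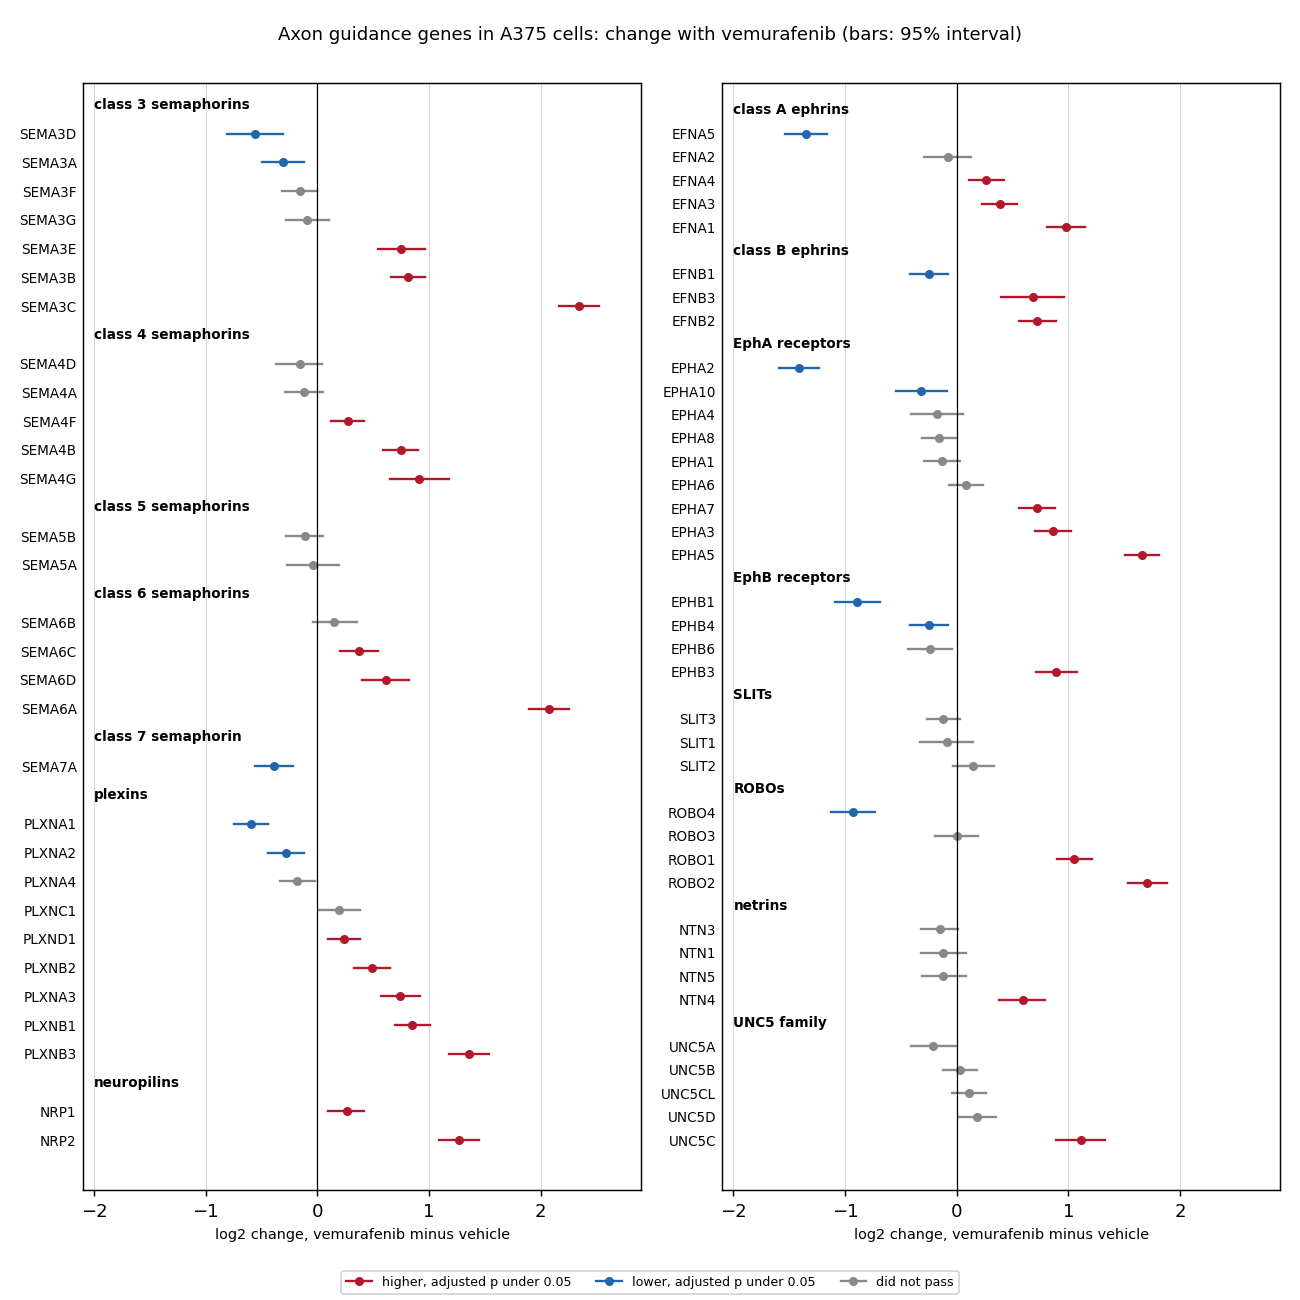
Each point is the log2 change of 1 guidance gene (vemurafenib minus vehicle, horizontal axis), grouped by family, with a bar for its 95% interval from limma; red and blue points passed the adjusted p threshold and grey ones did not. SEMA3C at 2.34 and SEMA6A at 2.07 stand farthest to the right, EPHA2 at -1.41 and EFNA5 at -1.35 farthest to the left, and the 3 SLITs lie near 0.

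DUSP6, a phosphatase gene switched on by ERK signalling, had a mean of 11.21 with vehicle and fell by 4.21 with vemurafenib. All 7 genes listed as ERK output fell. That list was drawn up with earlier results of these data known, so it describes the groups and is no independent check of the labels. Of 6 melanocyte markers measured, MITF (10.17 and 10.91) and SOX10 (11.48 and 11.78) were bright and rose, while PMEL, TYR, TYRP1 and MLANA were dim in both groups. Array medians lay between 7.69 and 7.73 over all probe sets. Markers of other cell types moved in part, read as the sum of their linear levels per array. Of 8 fibroblast markers 3 rose (sums of 1460 to 1650 with vehicle and 2200 to 2500 with the drug, 1 marker dim in both groups), namely DCN, LUM and PDGFRB. Of 8 neuron markers NEFL and SYT1 rose and SNAP25 and STMN2 fell (2150 to 2230 and 3790 to 3960, 1 dim in both). Of 6 leukocyte markers CD68, a lysosomal protein, rose (11.39 and 12.40) while LYZ and CD14 fell by 0.75 and 0.32 (4140 to 4470 and 6250 to 6620, 4 dim in both), so the higher sum came from CD68 alone among the called markers. Of the keratinocyte markers, 0 of 5 passed (855 to 965 and 870 to 1040, 2 dim in both). Their part in the results was not tested.

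Class 3 semaphorins, the secreted members, split: 3 of 7 rose, 2 fell and 2 did not pass. SEMA3C, a secreted cue that acts through neuropilins and plexins in the migration of neural crest cells to the heart, stood at 10.44, 10.26 and 10.46 in the vehicle arrays and at 12.69, 12.81 and 12.68 with vemurafenib. Every drug array lay more than 2 log2 units above every vehicle array. Its means were 10.39 ± 0.11 and 12.73 ± 0.07 (SD, n = 3), a rise of 2.34 (SE 0.08) or 5.07-fold (limma adjusted p 2.8e-09). By size of rise it ranked 45 among the 18417 genes. RefSeq's promoter table (GRCh38.p14) holds 2 starts for SEMA3C, and the 250 bases before each are shown because this gene made the largest change of the family. The outer start has an AT-rich window (36.4% G or C) and the inner one a GC-rich window (77.6%), against a median of 58.0% over the table's windows. Neither window holds a match to the motifs searched. The array value does not tell which start the RNA came from.
SEMA3C outer start, chr7:80922390-80922639, minus strand: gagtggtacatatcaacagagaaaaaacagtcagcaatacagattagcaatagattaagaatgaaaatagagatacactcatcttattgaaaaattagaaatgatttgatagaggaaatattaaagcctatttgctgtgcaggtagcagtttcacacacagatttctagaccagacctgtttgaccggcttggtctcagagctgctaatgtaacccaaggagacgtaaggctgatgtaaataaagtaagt
SEMA3C inner start, chr7:80919052-80919301, minus strand: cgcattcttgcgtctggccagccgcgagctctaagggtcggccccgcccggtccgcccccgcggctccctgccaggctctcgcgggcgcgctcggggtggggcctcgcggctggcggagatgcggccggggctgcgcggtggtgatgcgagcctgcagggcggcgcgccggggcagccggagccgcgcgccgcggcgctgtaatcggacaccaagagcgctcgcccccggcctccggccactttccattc

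SEMA3B, a secreted semaphorin described as a tumour suppressor in lung cancer, read 9.39, 9.42 and 9.32 in vehicle and 10.21, 10.14 and 10.22 with vemurafenib. The groups lay apart, and the rise was 0.81 (SE 0.07), or 1.76-fold (limma adjusted p 2.51e-06), from 9.38 ± 0.05 to 10.19 ± 0.04 (SD, n = 3). SEMA3E, a cue that binds plexin D1 without a neuropilin, read 6.17, 6.04 and 6.19 in vehicle and 6.69, 7.06 and 6.88 with the drug. The groups did not overlap, but the vehicle level of SEMA3E was dim, so its 1.68-fold rise (0.75, SE 0.10, limma adjusted p 6.37e-05) is a ratio of array values that background limits. SEMA3D read 8.02, 7.87 and 7.92 in vehicle and 7.58, 7.47 and 7.08 with the drug, a fall of 0.56 (SE 0.12, 1.47-fold, limma adjusted p 0.00195), with the lowest array setting most of the drug group's SD of 0.26. SEMA3A, the axon repellent that signals through neuropilin 1 and class A plexins, changed by -0.31, from 11.25 ± 0.07 to 10.93 ± 0.14 (SD, n = 3, limma adjusted p 0.0112). SEMA3F and SEMA3G did not pass, at -0.16 and -0.09.

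These class 3 genes partly share a position. In the RefSeq gene order (GRCh38.p14) SEMA3E, SEMA3A and SEMA3D follow each other with 0 protein-coding genes between them, and 3 lie between SEMA3C and SEMA3E. Their changes ran in both directions along that stretch: 2.34 for SEMA3C, 0.75 for SEMA3E, -0.31 for SEMA3A and -0.56 for SEMA3D. SEMA3F and SEMA3B, with 3 protein-coding genes between them, likewise differed, at -0.16 and 0.81.

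Among the membrane-bound semaphorins the called changes were mostly rises: 3 of 5 in class 4, 0 of 2 in class 5 and 3 of 4 in class 6, with no fall in these classes. SEMA6A, a transmembrane cue that binds plexins A2 and A4, read 7.28, 7.31 and 7.42 in vehicle and 9.29, 9.39 and 9.54 with vemurafenib. All drug arrays were far above all vehicle arrays, with means of 7.34 ± 0.07 and 9.41 ± 0.13 (SD, n = 3), a change of 2.07 (SE 0.08, limma adjusted p 9.32e-09). SEMA6D, a plexin A1 ligand in heart development, read 6.44, 6.61 and 6.37 in vehicle and 7.25, 6.93 and 7.08 with the drug. That rise of 0.61 (SE 0.10, 1.53-fold, limma adjusted p 0.000289) also started from a dim vehicle level. The drug mean of SEMA6D, 7.09, was little above the dim limit. SEMA6C rose by 0.37 (limma adjusted p 0.00205), and SEMA6B did not pass, at 0.15.

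SEMA4G, a transmembrane semaphorin, read 7.90, 8.14 and 8.06 in vehicle and 8.97, 8.67 and 9.20 with vemurafenib, the drug arrays being more scattered but all higher. Its rise was 0.91 (SE 0.12, 1.88-fold, limma adjusted p 7.53e-05). SEMA4B, of the same class, read 8.46, 8.51 and 8.42 in vehicle and 9.24, 9.16 and 9.23 with the drug. The arrays of each group lay close together, and the change was 0.75 (SE 0.07, 1.68-fold, limma adjusted p 4.86e-06). SEMA4F rose by 0.27 (limma adjusted p 0.00622). SEMA4D, the plexin B1 ligand known from lymphocytes, overlapped between groups (8.48 and 8.32, limma adjusted p 0.183), and its other probe set gave -0.20 against -0.16. SEMA4A, SEMA5A and SEMA5B did not pass. SEMA7A, which is anchored in the membrane by a lipid and binds plexin C1 and integrins, fell by 0.39, from 10.26 ± 0.06 to 9.87 ± 0.09 (SD, n = 3, limma adjusted p 0.00129), while PLXNC1 itself was dim in both groups (6.45 and 6.65) and did not pass.

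Of the 9 plexins, the receptors of semaphorins, 5 rose and 2 fell, and all 3 class B plexins rose. PLXNB3, a class B plexin that binds SEMA5A, read 8.90, 8.93 and 8.88 in vehicle and 10.23, 10.14 and 10.42 with vemurafenib. No arrays overlapped, and the means of 8.90 ± 0.02 and 10.26 ± 0.14 (SD, n = 3) differ by 1.36 (SE 0.08), or 2.57-fold (limma adjusted p 1.68e-07). PLXNB1, the SEMA4D receptor, read 8.26, 8.38 and 8.32 in vehicle and 9.09, 9.18 and 9.23 with the drug. It thus rose by 0.85 (SE 0.07, 1.80-fold, limma adjusted p 2.67e-06), with all drug arrays higher. PLXNB2, broadly expressed and also a receptor of class 4 semaphorins, rose by 0.49, from 10.55 to 11.04 (limma adjusted p 0.000197). Of the ligands named for these receptors, SEMA5A and SEMA4D did not pass, at -0.04 and -0.16, while SEMA4B, SEMA4F and SEMA4G of class 4 rose, as above.

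Class A plexins, which pair with neuropilins for secreted semaphorins and bind class 6 semaphorins directly, moved apart from one another. PLXNA3 read 8.17, 8.05 and 8.24 in vehicle and 8.88, 8.82 and 8.99 with vemurafenib, a rise of 0.74 (SE 0.08, 1.67-fold, limma adjusted p 1.56e-05). PLXNA1 went the other way, from 10.18, 10.12 and 10.15 in vehicle to 9.63, 9.50 and 9.52 with the drug. Its arrays lay apart too, and it fell by 0.60 (SE 0.07, 1.51-fold, limma adjusted p 3.35e-05). PLXNA2 changed by -0.28 (limma adjusted p 0.00848), and PLXNA4, dim in both groups, by -0.18 (limma adjusted p 0.0658). The SEMA6A receptors PLXNA2 and PLXNA4 were thus lower or did not pass while SEMA6A rose. PLXND1, the SEMA3E receptor, rose by 0.24 (limma adjusted p 0.0133).

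Both neuropilins rose. NRP2, the co-receptor for SEMA3C and SEMA3F and for VEGFC, read 9.69, 9.60 and 9.82 in vehicle and 10.90, 11.07 and 10.95 with vemurafenib. The drug arrays were all higher, by 1.27 on average (SE 0.08, 2.41-fold, limma adjusted p 2.75e-07), with means of 9.70 ± 0.11 and 10.97 ± 0.09 (SD, n = 3). A further probe set of NRP2 (8047763) read 8.72, 8.49 and 8.83 in vehicle and 10.27, 10.59 and 10.38 with the drug, a larger change of 1.73 (SE 0.11, 3.33-fold). Both probe sets therefore separated the groups, with different sizes of change. NRP1, the SEMA3A and VEGFA co-receptor, changed by 0.26, from 10.21 ± 0.06 to 10.47 ± 0.09 (SD, n = 3, limma adjusted p 0.0158). That call was lost without vehicle replicate 1 (limma adjusted p 0.0737) or without vemurafenib replicate 2 (0.0629). The neuropilin ligands VEGFA and VEGFC and the VEGF receptor KDR fell, with changes of -0.34, -0.50 and -0.44.

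**Figure D2:**
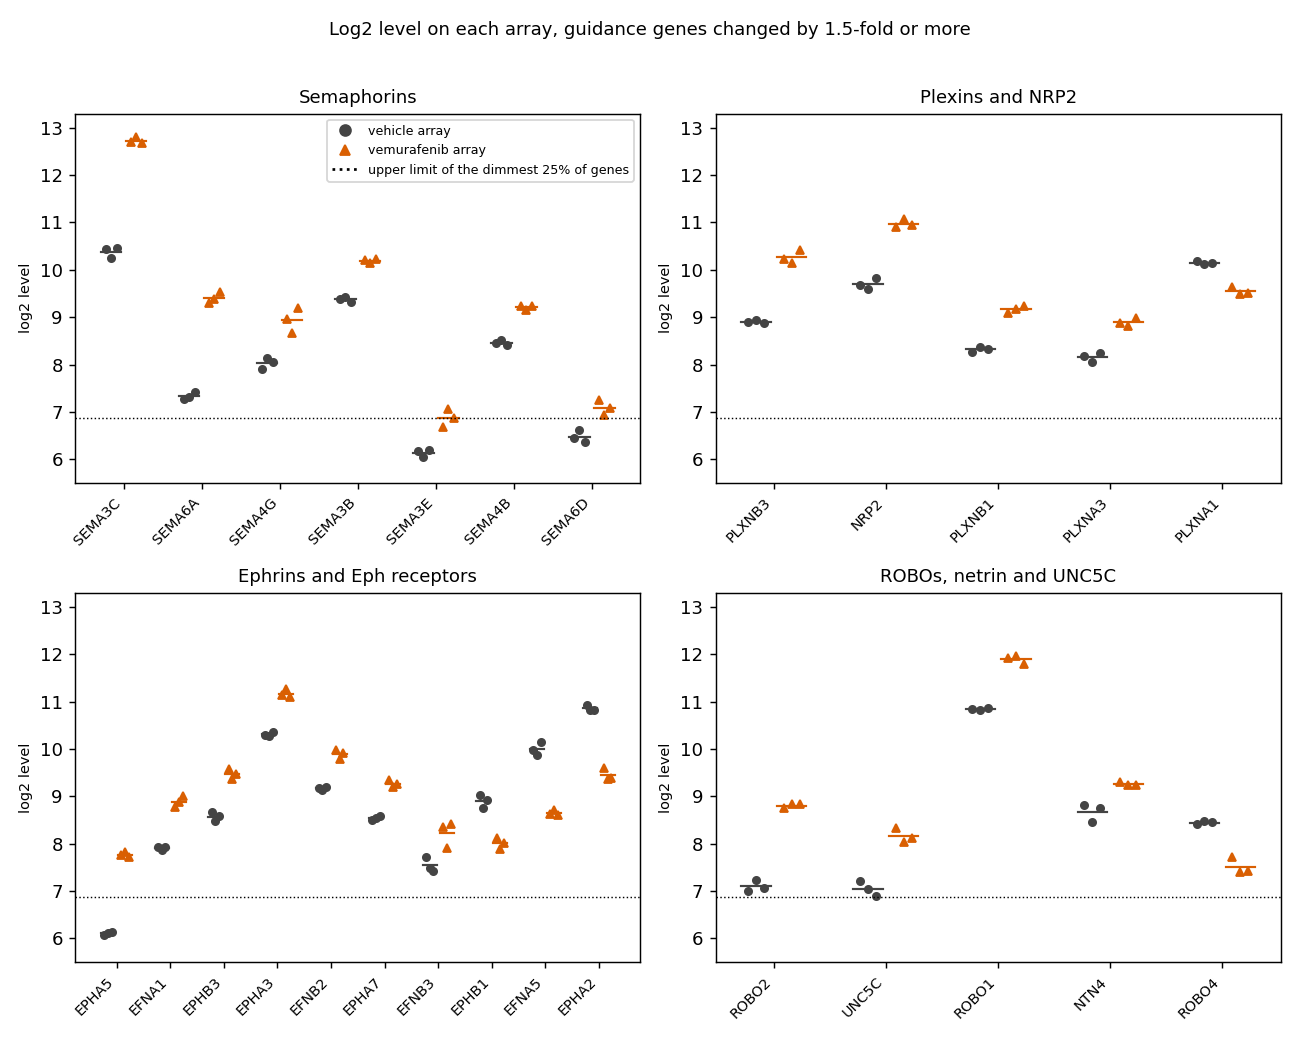
Log2 level on each of the 6 arrays (vertical axis) for the 27 guidance genes that passed the threshold with a change of 1.5-fold or more; circles are vehicle arrays, triangles vemurafenib arrays, short lines group means, and the dotted line marks 6.87, the upper limit of the dimmest 25% of genes. Within each gene the triangles and circles do not overlap, and the vehicle arrays of SEMA3E, SEMA6D and EPHA5 lie under the dotted line; levels of different genes are not comparable.

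Of the 8 ephrins, the membrane-bound ligands of Eph receptors, 5 rose, 2 fell and EFNA2 did not pass (-0.08). EFNA5, a class A ephrin held to the membrane by a lipid anchor and known from retinal axon mapping, read 9.97, 9.87 and 10.15 in vehicle and 8.62, 8.71 and 8.61 with vemurafenib. The groups were more than 1 log2 unit apart, with means of 10.00 ± 0.14 and 8.64 ± 0.06 (SD, n = 3), a fall of 1.35 (SE 0.09, 2.55-fold, limma adjusted p 2.32e-07). EFNA1, first found as a gene induced by tumour necrosis factor and the main ligand used to study EPHA2, moved the other way. It read 7.93, 7.86 and 7.93 in vehicle and 8.78, 8.88 and 9.00 with the drug, a rise of 0.98 (SE 0.08, 1.97-fold, limma adjusted p 1.29e-06). EFNA3 and EFNA4 rose by 0.39 and 0.26 (limma adjusted p 0.00102 and 0.00837). In the RefSeq gene order EFNA4, EFNA3 and EFNA1 are adjacent protein-coding genes, and all of them rose.

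Class B ephrins span the membrane and signal back into the cell that bears them. EFNB2, the arterial marker and EPHB4 ligand, read 9.17, 9.14 and 9.20 in vehicle and 9.98, 9.78 and 9.91 with vemurafenib. The groups lay apart by more than their own ranges, and EFNB2 rose by 0.72 (SE 0.07, 1.65-fold, limma adjusted p 1.19e-05). EFNB3, a midline cue of the spinal cord, read 7.73, 7.49 and 7.43 in vehicle and 8.35, 7.92 and 8.42 with the drug. Vemurafenib replicate 2 was closer to the vehicle arrays than the others, yet all were higher, and EFNB3 rose by 0.68 (SE 0.13, 1.60-fold, limma adjusted p 0.000981). EFNB1 changed by -0.25 (limma adjusted p 0.0188), a call lost without vehicle replicate 3 (0.0515) or vemurafenib replicate 2 (0.0757).

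Of the 13 Eph receptors, 4 rose, 4 fell and 5 did not pass (61.5% called, against 45.5% of all genes). EPHA2, a receptor tyrosine kinase raised in many cancers, read 10.92, 10.83 and 10.82 in vehicle and 9.59, 9.37 and 9.38 with vemurafenib. All drug arrays lay more than 1 log2 unit lower, and the means of 10.86 ± 0.06 and 9.45 ± 0.12 (SD, n = 3) differ by -1.41 (SE 0.08, limma adjusted p 1.26e-07). Its ligands EFNA1 and EFNA5 thus changed in opposite directions, the former against the receptor and the latter with it. EPHA10, an Eph receptor without kinase activity, changed by -0.32 (limma adjusted p 0.0258). Its other probe set gave -0.05 at dim levels (5.96 with vehicle and 5.91 with the drug), where background limits a change. The call was lost on the mean of both probe sets (limma adjusted p 0.0583) and with the replicate number as a block (0.0583). It was also lost without vehicle replicate 2 (0.0968) or vemurafenib replicate 2 (0.102).

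The 250 bases before the RefSeq starts of EPHA2 and EFNA5 are shown since these were the members that fell 2-fold or more. Capitals in EPHA2 mark 2 matches: CATTCC, the reverse complement of the TEAD motif GGAATG, which begins 73 bases before the start, and TGACGTCA, the cyclic AMP response element, which begins 51 bases before it. The EFNA5 window (79.6% G or C) holds no match to the motifs searched.
EPHA2, chr1:16156070-16156319, minus strand: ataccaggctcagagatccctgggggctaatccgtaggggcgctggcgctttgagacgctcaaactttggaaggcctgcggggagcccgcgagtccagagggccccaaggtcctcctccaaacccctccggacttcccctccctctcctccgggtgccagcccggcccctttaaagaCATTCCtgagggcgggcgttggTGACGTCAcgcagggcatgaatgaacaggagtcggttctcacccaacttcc
EFNA5, chr5:107670938-107671187, minus strand: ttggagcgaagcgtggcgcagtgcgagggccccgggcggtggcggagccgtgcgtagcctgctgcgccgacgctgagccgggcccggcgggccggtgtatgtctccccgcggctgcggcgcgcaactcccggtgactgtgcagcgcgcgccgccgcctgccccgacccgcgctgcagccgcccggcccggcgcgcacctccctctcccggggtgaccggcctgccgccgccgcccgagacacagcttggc

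Searched on both strands of the 35116 windows in that table, GGAATG was in 11.9% of all windows and in 7.95% of the 88 windows of the 57 guidance genes listed there. The shares were 1.65% and 2.27% for TGACGTCA, a motif added after the EPHA2 sequence was read, and 8.52% and 3.41% for the ETS motif CCGGAAG. They were 6.57% and 1.14% for the AP-1 motif TGANTCA, 6.34% and 4.55% for the E-box CACGTG, and 2.52% and 3.41% for the M-box TCATGTG. None of these motifs contains another. Matches were few, at most 6 guidance genes for a motif. PLXNB1 and SEMA4B, the genes with the ETS motif, both rose. So did 2 of 4 genes with the E-box, 2 of 3 with the M-box and 3 of 6 with GGAATG. The figures were 1 of 2 for TGACGTCA and 0 of 1 for the AP-1 motif. Of all 57 guidance genes with a window, 26 rose.

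Among the EphA receptors, 3 of 9 rose and 2 fell. EPHA5, which guides retinal and hippocampal axons, read 6.08, 6.12 and 6.13 in vehicle and 7.77, 7.82 and 7.71 with vemurafenib. The rise of 1.66 (SE 0.07, 3.16-fold, limma adjusted p 1.1e-08) left a dim vehicle level, so background limits that ratio. EPHA3, a receptor for EFNA5 that is mutated in several tumours, read 10.29, 10.28 and 10.35 in vehicle and 11.14, 11.26 and 11.10 with the drug. It rose by 0.86 (SE 0.07, 1.82-fold, limma adjusted p 2.45e-06), with groups well apart. EPHA7, which acts in cortical development, read 8.51, 8.54 and 8.59 in vehicle and 9.35, 9.19 and 9.26 with the drug, and so was higher in all drug arrays, by 0.72 (SE 0.07, 1.65-fold, limma adjusted p 9.9e-06). EPHA4, which binds ephrins of both classes, overlapped between groups (-0.18, limma adjusted p 0.206), and EPHA1, EPHA6 and EPHA8 did not pass.

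EphB receptors, which bind the class B ephrins, also split. EPHB3, a receptor of the gut epithelium, read 8.67, 8.47 and 8.58 in vehicle and 9.58, 9.37 and 9.47 with vemurafenib. It rose by 0.89 (SE 0.08, 1.86-fold, limma adjusted p 4.68e-06). EPHB1 read 9.02, 8.75 and 8.93 in vehicle and 8.13, 7.89 and 8.02 with the drug, and fell by 0.89 (SE 0.09, 1.85-fold, limma adjusted p 1.12e-05). These close relatives changed by a like amount in opposite directions, each with groups apart. EPHB4, the venous partner of EFNB2, changed by -0.25 (limma adjusted p 0.0225), a call lost without vehicle replicate 1 (0.0962) or vemurafenib replicate 2 (0.0896), and EPHB6, a kinase-dead receptor, missed the threshold (-0.24, limma adjusted p 0.052).

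Of the 4 ROBO receptors 2 rose and 1 fell, and 0 of the 3 SLIT cues passed. ROBO2, a SLIT receptor of axon tracts, read 7.01, 7.24 and 7.06 in vehicle and 8.75, 8.83 and 8.84 with vemurafenib. The groups lay far apart, with a rise from 7.10 ± 0.12 to 8.81 ± 0.05 (SD, n = 3) or 1.70 (SE 0.08, 3.26-fold, limma adjusted p 2.64e-08). Its vehicle mean was little above the dim limit of 6.87, so background may limit that ratio. ROBO1, which keeps commissural axons from crossing the midline again, read 10.85, 10.82 and 10.86 in vehicle and 11.92, 11.97 and 11.80 with the drug. It rose by 1.05 (SE 0.07, 2.08-fold, limma adjusted p 4.61e-07). ROBO1 and ROBO2 are adjacent protein-coding genes in the RefSeq order, and so are ROBO3 and ROBO4, of which ROBO3 stood at 7.53 in both groups. RefSeq lists 2 starts for ROBO2, whose upstream windows are shown because it made the third largest rise of the family. Neither window holds a match to the motifs searched, and G or C makes up 46.8% of the outer and 76.0% of the inner one.
ROBO2 outer start, chr3:76310630-76310879, plus strand: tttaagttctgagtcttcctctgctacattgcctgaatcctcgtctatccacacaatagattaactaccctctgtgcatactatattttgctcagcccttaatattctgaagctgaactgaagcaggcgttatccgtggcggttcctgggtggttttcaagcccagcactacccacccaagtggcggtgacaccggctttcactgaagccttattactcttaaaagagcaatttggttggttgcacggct
ROBO2 inner start, chr3:77039849-77040098, plus strand: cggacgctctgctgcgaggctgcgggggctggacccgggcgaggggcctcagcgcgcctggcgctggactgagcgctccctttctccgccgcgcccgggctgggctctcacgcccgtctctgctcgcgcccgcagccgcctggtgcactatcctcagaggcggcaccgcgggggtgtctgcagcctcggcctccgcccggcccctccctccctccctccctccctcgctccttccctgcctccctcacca

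SLIT2, a secreted repellent and the main ligand of ROBO1, stood at 9.50 ± 0.07 and 9.65 ± 0.12 (SD, n = 3), a change of 0.15 with a 95% interval from -0.03 to 0.33 (limma adjusted p 0.164). SLIT1 and SLIT3 changed by -0.09 and -0.12, with intervals from -0.33 to 0.15 and from -0.27 to 0.03. All 3 upper bounds lie below the changes of ROBO1 and ROBO2.

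ROBO4, a receptor known for its expression in endothelium, read 8.42, 8.47 and 8.45 in vehicle and 7.72, 7.40 and 7.43 with vemurafenib. It fell by 0.93 (SE 0.09, 1.91-fold, limma adjusted p 6.49e-06), while ROBO1 and ROBO2 rose and ROBO3 did not pass. Of 8 endothelial markers, 4 fell (PECAM1, TIE1, KDR and CLDN5) and 0 rose, and their summed linear level went from 1160 to 1230 per vehicle array to 999 to 1040 per vemurafenib array. Among them PECAM1, CDH5, VWF, TEK and TIE1 were dim in both groups. Their part in the result was not tested. The cultures were of 1 line, so these markers were read as RNA levels and not as numbers of endothelial cells.

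Of 4 netrins 1 rose, of 5 UNC5 genes 1 rose, and 0 of either fell. NTN4, a laminin-like netrin of basement membranes, read 8.81, 8.46 and 8.75 in vehicle and 9.30, 9.23 and 9.25 with vemurafenib. Its drug arrays were close together above a more scattered vehicle group, a rise of 0.59 (SE 0.09, limma adjusted p 0.000305). NTN1, NTN3 and NTN5 did not pass, with changes of -0.12, -0.15 and -0.12. UNC5C, a repulsive netrin receptor that can also promote cell death, read 7.21, 7.05 and 6.90 in vehicle and 8.33, 8.04 and 8.12 with the drug. All its drug arrays were higher, by 1.11 on average (SE 0.10, 2.16-fold, limma adjusted p 3.68e-06). The vehicle mean of UNC5C, 7.05, was little above the dim limit of 6.87, so background may limit that ratio. UNC5A, UNC5B, UNC5D and UNC5CL, the last a related cytoplasmic protein that the symbol rule takes in, did not pass. Nor did the other netrin receptor genes DCC (6.17 and 6.11, dim in both groups) and NEO1 (a change of 0.04).

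The further genes of these pathways were read from 3 lists of co-receptors and other cues, cytoplasmic effectors, and enzymes that shed or turn over cues and receptors. Of 112 genes listed, 99 were measured, and 34 rose and 25 fell, where 23.2% of all genes were called higher and 22.2% lower. Their median change was 0.00.

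Among 30 co-receptors and other cues measured, 9 rose and 11 fell. CNTN1, a neural cell adhesion molecule, made the largest rise, from 6.29 (dim) to 8.44, a change of 2.15 (SE 0.08, limma adjusted p 5.78e-09). NTNG1, a netrin relative anchored to the membrane, rose by 1.06, FLRT1, of a family that binds UNC5 receptors, by 0.91, and L1CAM, an adhesion molecule that joins NRP1 in SEMA3A reception, by 0.77. NTNG2 and GPC1, a heparan sulphate proteoglycan, were higher by 0.54 and 0.51. On the other side stood NRCAM, a relative of L1CAM (-1.06, with a dim drug level of 5.97 that limits the size), the receptor tyrosine kinase MET, which can pair with plexin B1 (-0.81), FLRT3 (-0.79), the syndecans SDC3 (-0.69) and SDC1 (-0.64), and RGMB, a neogenin ligand (-0.54). FLRT1 and FLRT3 thus went opposite ways, as did L1CAM and NRCAM.

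Of 57 cytoplasmic effectors measured, 20 rose and 11 fell. RRAS, the small GTPase on which the GAP domain of plexins acts, rose most, by 1.06 (2.09-fold, limma adjusted p 7.41e-07). It was followed by MICAL1, an oxidase that links plexin A to actin (0.83), CHN1, a RAC regulator downstream of EPHA4 (0.76), INPPL1, the lipid phosphatase SHIP2 that binds EPHA2 (0.74), VAV3 (0.68, dim in both groups) and SOS2 (0.66). RND3, a GTPase that opposes RHOA signalling, fell most, by 1.25 (2.38-fold, limma adjusted p 4.19e-07), ahead of DPYSL5, a collapsin response mediator (-0.97), VAV2, an exchange factor recruited by Eph receptors (-0.92), ROCK2 (-0.47), PAK2 (-0.41) and FARP1 (-0.38). VAV2 and VAV3 therefore changed in opposite directions. The GTPases RHOA (-0.09), RAC1 (-0.17) and CDC42 (-0.09) did not pass, although RAC1 did so in 5 of the alternatives.

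Of 12 shedding and turnover genes measured, 5 rose and 3 fell. CBLB, a ubiquitin ligase that marks receptors for removal, rose by 1.39, from 9.79 to 11.19 (limma adjusted p 7.39e-07), ADAM17 and MMP14, membrane proteases, by 0.78 and 0.67, MMP2 by 0.43 and USP33, a deubiquitinase of ROBO1, by 0.34. PTPN11, CBL and FURIN changed by -0.29, -0.21 and -0.19, and the calls of CBL and FURIN were lost in 7 and 8 of the alternatives tried. ADAM10, the protease that cuts ephrin-A ligands after Eph binding, stood at 12.16 and 12.17 (limma adjusted p 0.963).

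**Figure D3:**
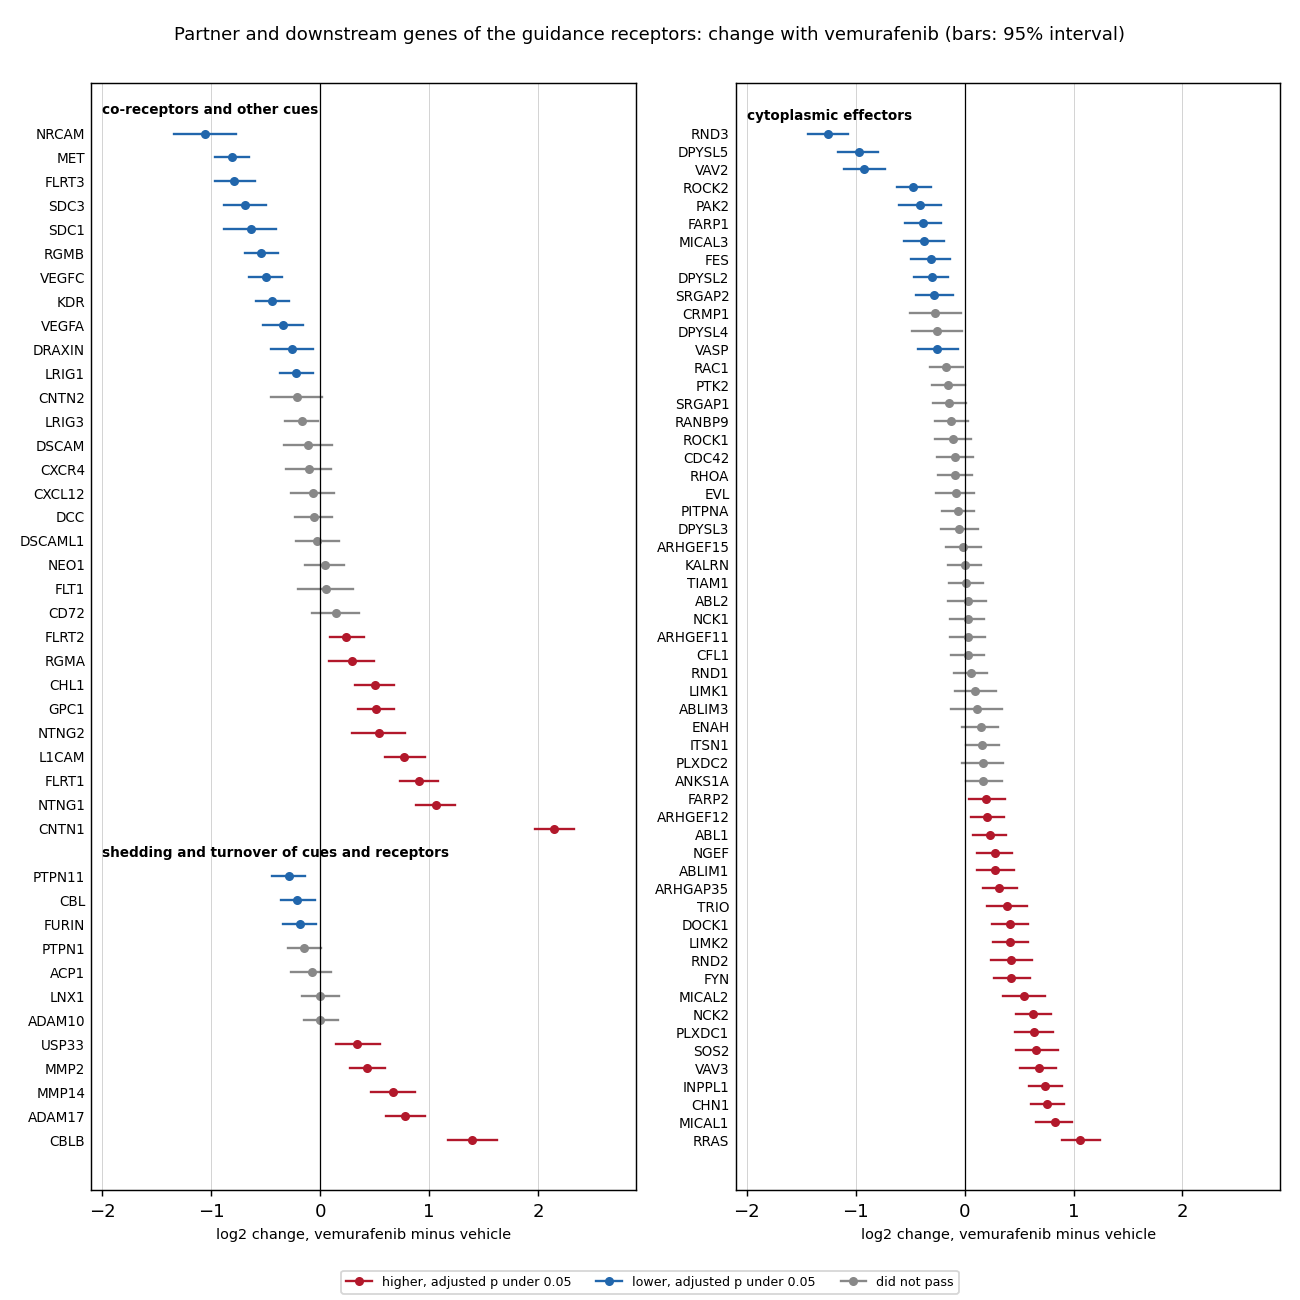
Log2 change (vemurafenib minus vehicle, horizontal axis) of the 99 measured partner and downstream genes, in 3 lists, with 95% intervals; colours mark genes past the threshold as higher (red) or lower (blue). CNTN1 at 2.15 and CBLB at 1.39 lie farthest to the right, RND3 at -1.25 and NRCAM at -1.06 farthest to the left.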

How the data were processed

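Total RNA of 6 cultures (3 vehicle, 3 vemurafenib) was biotin-labelled and hybridised to Affymetrix arrays of 1 colour, per the labels' protocols. The authors deposited 1 log2 value for each probe set and array. The tools given, with no version, are RMA and Partek, per the submitters' processing notes. The RMA method in general brings arrays to 1 distribution, and its folds run small for dim genes. A genome build for the probe sets is not given in the sources used here. The table held 33297 probe sets with 0 missing values, of which 19460 carried 1 gene symbol, 1754 several and 12083 none in the platform annotation of 2016. By Entrez identifier 67 of 67 member symbols matched the current RefSeq symbol, and 3 members had more than 1 probe set. No detection calls were used. Precision is limited by how few arrays there are.

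Groups came from the sample titles. limma 3.58.1 in R 4.3.3 (lmFit and eBayes, group as the only term, 2-sided) was fitted to all 18417 genes, with Benjamini-Hochberg adjustment, and was tested on simulated data. A fold is the antilog of the change's size, and intervals have a level of 95%. The members and lists were chosen with earlier results of these data known, so counts over them are descriptions. Members past the threshold with a change of at least 1.5-fold are given array by array, and of each partner list up to 6 rises and 6 falls are named by size, with direct partners of members. Named beyond that rule, after their values were seen, were RHOA, RAC1, CDC42 and the further probe sets of NRP2, SEMA4D and EPHA10. Promoter windows are from RefSeq (GRCh38.p14), read as the 250 bases before each start. Other settings tried were a block for replicate number, median centring, repeated quantile normalization, leaving out the dimmest 25% or 50% of genes, averaging the probe sets of a gene, robust eBayes with a trend on intensity, weighting of arrays, a stricter threshold (0.01) and leaving out each array in turn. Tables and figures were made with matplotlib 3.10.9 and pandas 2.3.3 on Python 3.11.15.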

Additional observations from a re-analysis of the deposited data

How the results depend on the processing

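Of the 41 guidance genes that passed, 35 also passed at a threshold of 0.01 (27 rises and 8 falls), and EPHA10, EPHB4, EFNB1, NRP1, SEMA3A and PLXND1 did not. At the threshold of 0.05, 37 kept their call in every other alternative run on them, and EPHA10, EPHB4, EFNB1 and NRP1 lost it in at least 1. The 27 genes that changed by 1.5-fold or more kept their calls in all the alternatives run on them, and no direction of a called gene reversed. A further 8 members that had not passed did so in at least 1 alternative. Leaving out 1 array gave 28 to 30 rises and 9 to 13 falls among the guidance genes, and 30 to 33 rises and 20 to 25 falls among the partner and downstream genes. Omitting the dimmer 50% of genes left 33 members to test, with 21 rises in place of 29 and 7 falls in place of 12. That filter uses the mean over all 6 arrays, drug arrays included, so the change itself helps decide which genes stay: SEMA6A stayed through its drug level and ROBO4 dropped out. Centring moved the median change of all genes by -0.005. With the replicate number as a block, 29 guidance genes rose and 11 fell, and 7606 genes of all 18417 passed in place of 8371. Same-numbered arrays deviated from their group means with correlations of 0.14, -0.18 and -0.25, so the numbers were not read as pairs. The design text, however, pairs dishes by lettered batch. The replicate numbers may not match those batches, so the block on them cannot show which calls hold under that pairing. Differently numbered arrays gave correlations from -0.14 to 0.28, the highest for vehicle replicate 2 with vemurafenib replicate 3. Vehicle replicate 3 with vemurafenib replicate 2 gave 0.22. With the arrays numbered 1 (0.14), these form an order in which every pair correlates positively. The labels do not say whether that order is the true one, and it was not fitted. The main fit took no account of pairing. Dim levels limit the folds of SEMA3E, SEMA6D and EPHA5. Vehicle means of ROBO2 (7.10) and UNC5C (7.05) were not dim by that rule. Both lay under 7.28, the level below which 95% of 341 olfactory receptor genes fell, so background may limit their folds too. The vemurafenib means of SEMA3E (6.88) and SEMA6D (7.09) also lay under that level.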
